A study of Homo sapiens with 60 samples.

Results

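The 10 genes described here are markers and effectors of the integrated stress response: ATF4, ATF3, DDIT3, CHAC1, TRIB3, SESN2, STC2, ASNS, DDIT4 and PPP1R15A. They were taken by symbol, through the Ensembl IDs of the count table, and all 10 were found among the 60675 genes listed. The cells were HepG2, an established human liver cancer line, cultured for 24 h with the DMSO vehicle (3 libraries) or with extracts made in ethanol from 6 plant drugs and 2 formulas. The vehicle label gives 0.1% DMSO, whereas the series' description gives 2%. Coptidis Rhizoma and Bupleuri Radix were given at 280, 56 and 11.2 µg/mL (high, medium and low dose), with 2 and 3 libraries per dose. Zizyphi Fructus (2 libraries per dose), Aconiti Lateralis Radix Preparata, Citri Unshius Pericarpium and Cimicifugae Rhizoma (3 each), and the formulas Yijung-tang (2) and Banhasasim-tang (1) were given at 500, 100 and 20 µg/mL. That makes 60 libraries in 25 groups. By the dose rule in the series' description, the high dose of Coptidis and of Bupleuri was the concentration that inhibited growth by 20%, whereas the other extracts were given the cap of 500 µg/mL. All groups share 1 tumour cell line and 1 time point, so none of the values describes primary hepatocytes or an earlier response.

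In the integrated stress response, kinases that sense endoplasmic reticulum stress, amino acid shortage, double-stranded RNA or haem shortage and mitochondrial stress phosphorylate the translation factor eIF2. General translation then falls while the transcription factor ATF4 is translated more, through upstream open reading frames in its mRNA, so that part of ATF4 control is invisible to mRNA counts. ATF4 with its partners switches on amino acid metabolism, the secondary factors ATF3 and DDIT3 (CHOP), and brakes on the pathway such as TRIB3 and PPP1R15A (GADD34).

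ATF4 and its C/EBP partners bind a composite element written TGATGNAA, and the cyclic AMP response element TGACGTCA is bound by ATF and CREB proteins. The RefSeq promoter windows (GRCh38.p14, from 250 bases before to 50 bases after each start) held all 10 genes. TGATGNAA, searched on both strands, was present for 3 of the 10 (ATF3, CHAC1 and ASNS), against 4.46% of the 27305 genes with a window. TGACGTCA was present for 1 of the 10 (PPP1R15A), against 2.25% of genes. The endoplasmic reticulum stress element (ERSE), searched the same way, was present for 0 of the 10 and 0.0916% of genes. The 30 bases around each match are shown because these 4 genes return in the results below. They read 5′ to 3′ along the strand of the gene, with the match in capitals. A match describes these letters only and is not evidence of binding.
ATF3 element, 191 to 184 bases before the start, chr1:212565205-212565234, plus strand: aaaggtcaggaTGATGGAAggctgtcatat
CHAC1 element, on the opposite strand, 209 to 202 bases before the start, chr15:40953251-40953280, plus strand: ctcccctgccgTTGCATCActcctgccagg
ASNS element, 68 to 61 bases before the start, chr7:97872458-97872487, minus strand: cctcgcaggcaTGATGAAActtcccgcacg
PPP1R15A element, 58 to 51 bases before the start, chr19:48872352-48872381, plus strand: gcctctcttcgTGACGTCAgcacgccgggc
The stretches of CHAC1 and ASNS lie within an exon of the same gene in GENCODE 29, and those of ATF3 and PPP1R15A overlap no exon. In that annotation (GRCh38) ATF4 lies at chr22:39519695-39522685 (plus strand), ATF3 at chr1:212565334-212620777 (plus), ASNS at chr7:97852118-97872542 (minus) and PPP1R15A at chr19:48872392-48876057 (plus), and no other gene overlaps any of the 10. Pseudogenes of ATF4 and of ASNS had at most 0.197 and 0.0412 CPM in any library.

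Library totals ran from 18015555 to 29549531 counts. Nothing in the labels states whether replicates came from separate cultures, so each p-value reflects only how far these libraries scatter, and that scatter may be technical. In the titles, vehicle has its own set code. Set and treatment therefore cannot be told apart against vehicle, but all doses of 1 extract come from a single set. The Coptidis and Zizyphi libraries are BatchD in their titles, like vehicle and the rest, but BatchC in their descriptions. If the descriptions hold, batch and extract cannot be told apart where these 2 extracts are compared with vehicle, or Coptidis with Bupleuri. CPM are counts per 1000000 counts, scaled between libraries for the genes of the results but not for the markers here or their sums. All 10 hepatocyte markers were detected in every library, with ALB at 6886 CPM or more. The leukocyte marker PTPRC and the epithelial channel CFTR were at 0 in all 60. Among the 12 markers of other cell types, LYZ and KRT19 had the highest medians (1317 and 171 CPM). CD68, PECAM1, VWF, COL1A1, ACTA2 and PDGFRB were also detected in every library, with medians from 0.541 (VWF) to 44.6 CPM (ACTA2). Mitochondrial rRNA took 2.31% to 3.51% of counts in the 51 libraries of vehicle and of extracts other than Coptidis and Banhasasim-tang. It took 11.6% to 11.8% at the Coptidis low dose, 10.2% to 11.5% at the medium dose and 5.41% to 5.68% at the high dose. In bulk RNA, fewer cells of a kind and less RNA per cell cannot be told apart.

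In vehicle, per kilobase of exon, ATF4 stood first with 130 CPM per kb, followed by TRIB3 (35.3), DDIT4 (15.9), STC2 (11.4), DDIT3 (10.1), ASNS (9.76), SESN2 (6.59), PPP1R15A (5.31) and ATF3 (1.00). CHAC1, a glutathione-degrading enzyme, had 2 counts in the 3 vehicle libraries together and is described by counts. The other 9 genes all passed the filter on low counts and were tested in every comparison. CHAC1 exceeded 3 counts per group in Coptidis libraries only, so it is left out of the counts of genes below.

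At 280 µg/mL of Coptidis all 9 genes rose against vehicle, among 67.5% of the 16675 genes tested that were called (adjusted p under 0.05 in edgeR's quasi-likelihood test) in either direction. The median log2 fold change of the 9 was 2.42, beside 0.00 over all genes tested. All 9 also rose at 56 µg/mL (median 1.71, with 50.7% of genes called) and at 11.2 µg/mL (median 0.84, with 33.2% called). In each of these 3 comparisons no Coptidis library overlapped a vehicle library for any of the 9 genes. The share of all genes tested without such overlap was not counted, so it cannot be said whether this sets the 9 apart. Summed hepatocyte markers were lower in the same high-dose libraries (26685 and 27654 CPM, beside 45711 to 46183 in vehicle), as were the summed markers of other cell types (1039 to 1115 CPM, beside 1595 to 1634). The part of these shifts and of the mitochondrial rRNA share in the gene changes was not tested.

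**Figure D1:**
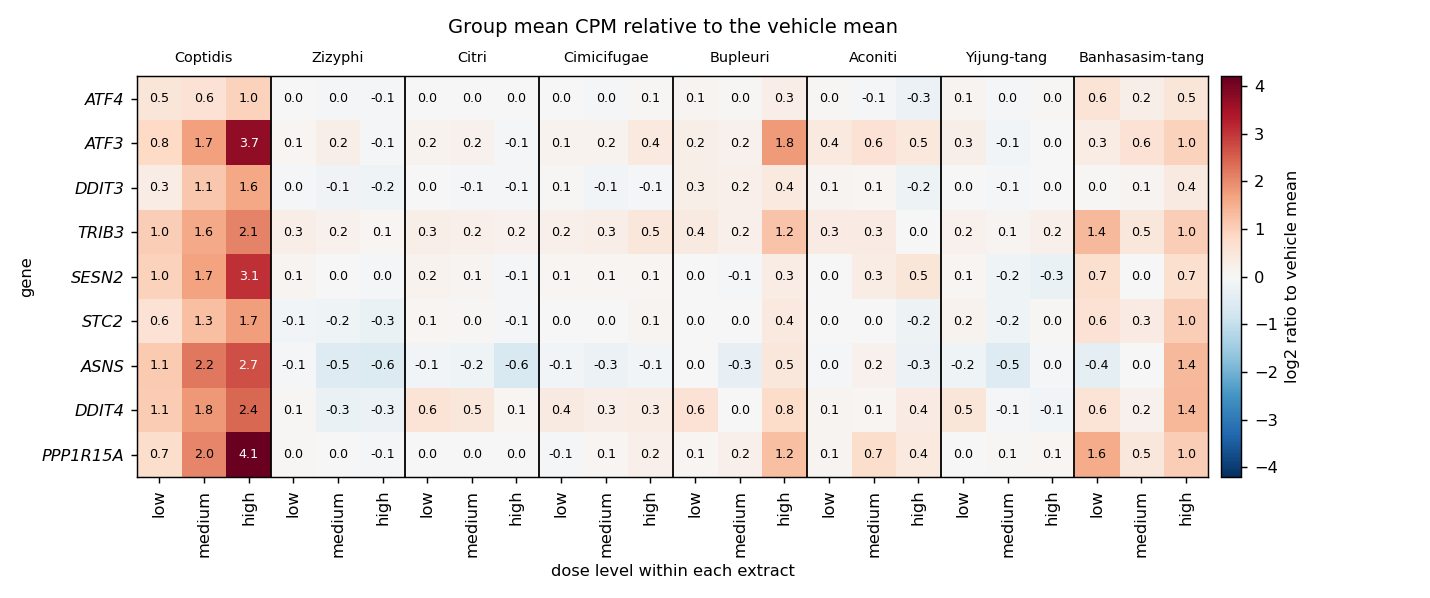
Group mean CPM of 9 genes (rows) in 24 groups (columns, 3 doses of each of 8 extracts), as the log2 ratio to the vehicle mean, in red where higher and in blue where lower. The Coptidis columns are red in every row and reach 4.14 for PPP1R15A, whereas most columns of the other extracts lie close to 0; Banhasasim-tang has 1 library per dose.

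Among the regulators, ATF4 mRNA measured 331, 325 and 328 CPM in the vehicle libraries and 648 and 642 CPM at the Coptidis high dose. The log2 fold change was 0.98 ± 0.05 (SE; edgeR adjusted p 6.35e-21), the smallest of the 9 genes. ATF3, a bZIP factor that represses and activates stress genes, went from 4.13, 4.29 and 3.75 CPM to 51.5 and 54.6 CPM. This was a 13.1-fold rise (log2 3.71 ± 0.10 SE, edgeR adjusted p 1.03e-32). DDIT3, the factor associated with cell death under lasting stress, went from 13.1, 12.7 and 13.7 CPM to 36.1 and 44.5 CPM, a 3.07-fold rise. No Coptidis library overlapped a vehicle library for these 3 factors, and the fold changes of ATF3 and DDIT3 exceeded that of ATF4, a difference between genes that was not tested.

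Of the feedback genes, PPP1R15A recruits the phosphatase that restores eIF2. Its level was 15.8, 17.0 and 16.6 CPM in vehicle and 297 and 282 CPM at the Coptidis high dose, the largest fold change of the 9 (17.7-fold, log2 4.14 ± 0.07 SE, edgeR adjusted p 3.98e-40). TRIB3, a pseudokinase that binds ATF4 and restrains AKT, rose from 116, 123 and 125 CPM to 501 and 531 CPM (4.27-fold). TRIB3 was the second most abundant of the 9 genes per kilobase in vehicle and had a smaller fold change than PPP1R15A.

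Of the genes that restrain mTORC1, SESN2, a leucine-sensing sestrin, rose 8.42-fold, from 21.7, 22.4 and 24.2 CPM to 196 and 186 CPM. DDIT4 (REDD1), which acts through the TSC complex, rose 5.34-fold, from 30.3, 28.4 and 39.6 CPM to 163 and 186 CPM. Vehicle replicate 3 was the high library for DDIT4, and it still lay far below both Coptidis libraries. Of the metabolic and secreted products, ASNS, the enzyme that makes asparagine, rose 6.58-fold, from 43.2, 43.0 and 44.3 CPM to 278 and 293 CPM. STC2, a secreted glycoprotein, rose 3.35-fold, from 69.8, 68.0 and 71.7 CPM to 229 and 239 CPM. Neither gene's groups overlapped.

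CHAC1 had 26 counts over the 2 Coptidis high-dose libraries (12 and 14), 18 at the medium dose (9 and 9) and 6 at the low dose (1 and 5), beside 2 in vehicle. The ratio to vehicle was 21.2 (95% counting interval 5.30 to 184) at the high dose, 12.7 (3.04 to 113) at the medium dose and 4.26 (0.762 to 43.2) at the low dose, the last of which includes no change. Ratios use unscaled library totals, and intervals cover counting error only. In the 22 groups without Coptidis no group had more than 3 counts, and 29 of those 54 libraries had 0. The floor of 3 counts corresponds to 0.0442 CPM over the 3 vehicle libraries.

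The genes differed in how the change was spread over the doses of Coptidis. ATF4 had 53.3% of its high-dose log2 change already at the low dose, TRIB3 49.2%, DDIT4 43.8% and ASNS 40.0%. PPP1R15A had 18.1%, DDIT3 19.5% and ATF3 22.5%. From the medium to the high dose all 9 rose again (48.0% of genes tested were called), led by PPP1R15A with a log2 fold change of 2.10 ± 0.07 (SE) and ATF3 with 1.98 ± 0.10. ASNS, by contrast, had 82.1% of its high-dose log2 change at the medium dose, where its libraries were at 188 and 218 CPM. These shares describe the order of the genes and were not tested against each other.

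Inside the set, all 9 genes were higher at the high than at the low dose of Coptidis (60.2% of genes tested were called), by log2 0.46 ± 0.06 (SE) for ATF4 up to 3.39 ± 0.07 for PPP1R15A. All 9 were also higher at the Coptidis high dose than in the Zizyphi high-dose libraries of the same set (64.4% of genes called), although the concentrations differ (280 and 500 µg/mL). The largest of these differences was again that of PPP1R15A (log2 4.21 ± 0.08), and ASNS followed ATF3 with 3.31 ± 0.08. At the low dose the call of DDIT3 against vehicle (libraries at 16.1 and 16.7 CPM, log2 0.32 ± 0.12, edgeR adjusted p 0.0432) was lost when any 1 of the 5 libraries compared was left out, with values of 0.29 to 0.34 and adjusted p of 0.0533 to 0.198. Without Coptidis high replicate 3, DDIT3 in high against medium was not called either (log2 0.32, adjusted p 0.071).

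Bupleuri at 280 µg/mL raised all 9 genes too, among 38.9% of genes called, but by less: the median log2 fold change was 0.49, beside 0.00 over all genes tested. ATF3 led with 13.2, 13.6 and 14.9 CPM (log2 1.77 ± 0.10 SE, edgeR adjusted p 1.68e-19), followed by PPP1R15A with 37.5, 39.9 and 39.6 CPM (1.25 ± 0.06) and TRIB3 with 264, 298 and 278 CPM (1.21 ± 0.06). These libraries lay above all vehicle libraries by a wide margin. DDIT4 (55.0, 57.2 and 56.3 CPM, log2 0.78) and ASNS (60.7, 64.0 and 58.3 CPM, log2 0.49) came next. DDIT3, STC2, SESN2 and ATF4 had log2 fold changes of 0.41, 0.39, 0.31 and 0.28. In the same libraries the summed hepatocyte markers were lower (40408 to 42606 CPM, beside 45711 to 46183 in vehicle) and markers of other cell types higher (1851 to 1979 CPM, beside 1595 to 1634), and their part in the gene changes was not tested. SESN2 was the closest to vehicle, with libraries at 24.8, 32.2 and 27.7 CPM against a highest vehicle library at 24.2 CPM. The calls of DDIT3 and SESN2 each rest on a setting: DDIT3 in a fit of Bupleuri and vehicle alone had an adjusted p of 0.0813, and SESN2 after an adjustment for GC content and transcript length had log2 0.16 and an adjusted p of 0.0519.

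The lower doses of Bupleuri had little of this pattern. At 56 µg/mL, where 10.9% of genes were called, PPP1R15A (log2 0.21) and TRIB3 (0.20) were higher and ASNS was lower, at 36.0, 32.5 and 34.1 CPM (log2 -0.35 ± 0.06 SE, edgeR adjusted p 0.000212). In a fit of Bupleuri and vehicle alone none of these 3 was called (ASNS -0.35, adjusted p 0.0815; TRIB3 0.20, adjusted p 0.32; PPP1R15A 0.21, adjusted p 0.185). PPP1R15A was also lost with offsets for GC content and length (0.13, adjusted p 0.189) and without a filter (0.22, adjusted p 0.0884). The PPP1R15A call was lost without vehicle replicate 1, 2 or 3 or Bupleuri medium replicate 1 or 2 (log2 0.15 to 0.23, adjusted p 0.0521 to 0.23), and that of TRIB3 without vehicle replicate 1 or 2 or Bupleuri medium replicate 2 or 3 (log2 0.17 to 0.21, adjusted p 0.0569 to 0.139). At 11.2 µg/mL, where 22.3% were called, DDIT4 (log2 0.61 ± 0.11) and TRIB3 (0.38 ± 0.06) were higher. TRIB3 was not called in a fit of Bupleuri and vehicle alone (0.38, adjusted p 0.0554).

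Bupleuri low replicate 3 stood apart in that group. ATF4 was 412 CPM there beside 333 and 330, DDIT3 21.3 beside 12.7 and 13.2, TRIB3 184 beside 143 and 145, and STC2 60.6 beside 76.7 and 70.6. The library departed beyond these genes: its summed hepatocyte markers were 36349 CPM beside 49438 and 48127, and its markers of other cell types 1862 CPM beside 1561 and 1596. Its chi-square per degree of freedom against the other two was 99.4 and 94.3, where theirs was 2.63. The part of this in the member values was not tested. Without it, 2051 of 16661 genes were called at the low dose in place of 3716 of 16675, and DDIT4 and TRIB3 were still called (log2 0.51 and 0.25). Without Bupleuri low replicate 1 or 2, which leaves that library in, 4 of the 9 genes were called in place of 2: ATF4 (log2 0.18 in both cases) and DDIT3 (0.37 and 0.36) were called there too. The share of all genes called in those fits is not given, so whether this sets the 9 apart cannot be said.

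In high against low dose of Bupleuri, 7 of the 9 genes were higher (40.2% of genes called), and DDIT3 and DDIT4 did not pass (log2 0.17 for each). Without Bupleuri low replicate 3, DDIT3 passed as well (log2 0.44 ± 0.09 SE, edgeR adjusted p 4.04e-05). ATF4, the smallest of the 7 (log2 0.15 ± 0.05), was not called without Bupleuri low replicate 1 or 2 (0.10 and 0.09, adjusted p 0.109 and 0.133) or in a separate fit (0.15, adjusted p 0.198). In the high-dose libraries of the same set, 8 of the 9 were higher with Bupleuri (280 µg/mL) than with Aconiti (500 µg/mL), among 32.6% of genes called, led by ATF3 (log2 1.32) and TRIB3 (1.21). SESN2 alone was lower (log2 -0.19 ± 0.07, edgeR adjusted p 0.0429), with overlapping libraries. That call was lost without Bupleuri high replicate 1 or 3 or Aconiti high replicate 1 or 3 (log2 -0.10 to -0.21, adjusted p 0.0671 to 0.383). It was lost as well with a replicate block (-0.18, adjusted p 0.0783), DESeq2 (0.0635), RLE scaling (0.0545), no filter (0.0807) and a separate fit (0.131).

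**Figure D2:**
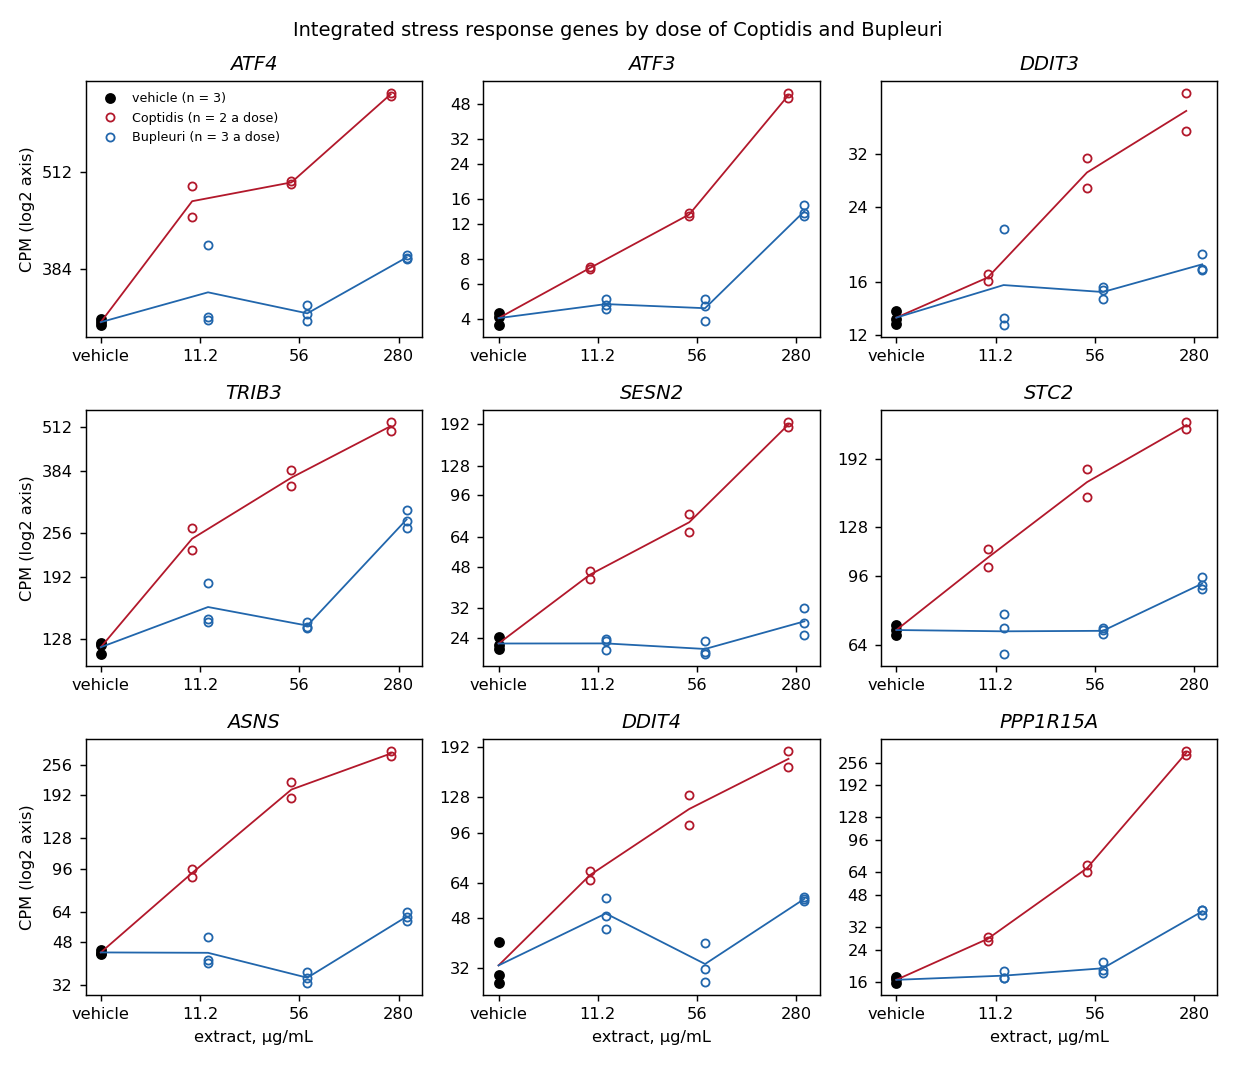
CPM (log2 axis) of 9 genes in each library of vehicle (black), Coptidis (red) and Bupleuri (blue) at 11.2, 56 and 280 µg/mL, with lines through the group means. Coptidis rises at each step in every panel, and Bupleuri leaves the vehicle level mainly at 280 µg/mL; the high Bupleuri point at 11.2 µg/mL in ATF4, DDIT3 and TRIB3 is replicate 3.

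Coptidis and Bupleuri were given at the same 3 concentrations, so the rise from the low to the high dose was compared between them. The rise was larger with Coptidis for all 9 genes, where 44.0% of genes tested were called for this difference in either direction. The difference in log2 fold change was largest for PPP1R15A (2.22 ± 0.10 SE), SESN2 (1.80 ± 0.12) and ATF3 (1.33 ± 0.14). It was smallest for ATF4 (0.31 ± 0.08) and TRIB3 (0.24 ± 0.10, edgeR adjusted p 0.0425). The TRIB3 difference did not pass without Bupleuri low replicate 3 (log2 0.10, adjusted p 0.287), Coptidis low replicate 2 (0.13, adjusted p 0.378), Coptidis high replicate 3 (0.19, adjusted p 0.177) or Bupleuri high replicate 1 or 3 (0.18 and 0.23, adjusted p 0.152 and 0.0674), or with a replicate block (0.22, adjusted p 0.0706). Without Bupleuri low replicate 3 the ATF4 difference was 0.19 ± 0.06 and still called, but in a fit of Coptidis and Bupleuri alone it was not called (0.31, adjusted p 0.104), nor was that of TRIB3 (0.24, adjusted p 0.305). TRIB3 was not called without a filter on low counts either (0.20, adjusted p 0.119).

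**Figure D3:**
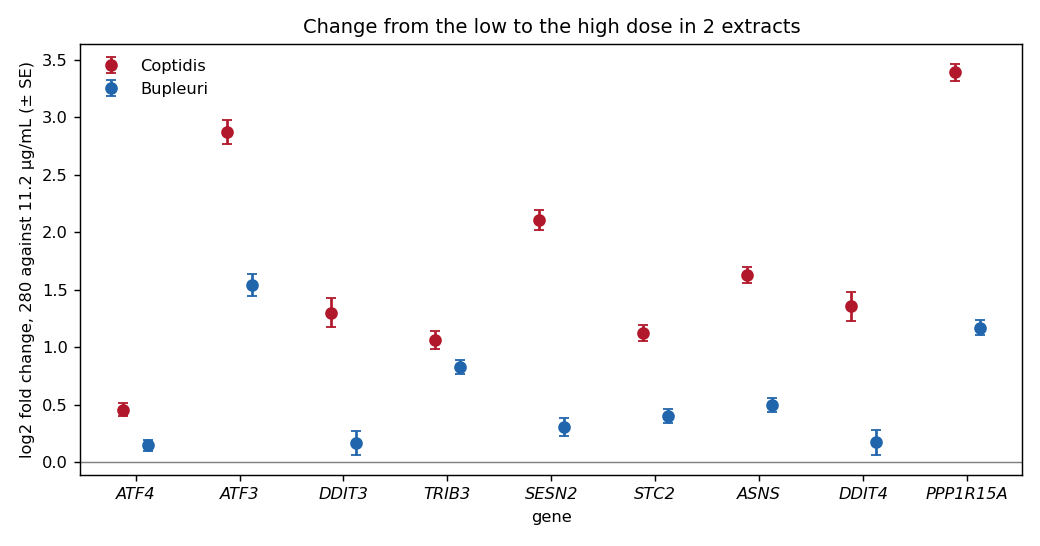
Log2 fold change between 280 and 11.2 µg/mL of Coptidis (red) and Bupleuri (blue) for 9 genes, with SE bars from the fit across all genes. The red points lie above the blue points for each gene, with the widest gap for PPP1R15A (3.39 and 1.17) and the narrowest for TRIB3 (1.06 and 0.83).

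Aconiti split the genes. At the high dose 4 rose and 3 fell against vehicle, among 23.2% of genes called, and the median log2 fold change of the 9 was -0.01, beside 0.02 over all genes. SESN2 was higher at 31.5, 30.7 and 34.5 CPM (log2 0.50 ± 0.08 SE, edgeR adjusted p 2.49e-06), as were ATF3 (0.45), PPP1R15A (0.41) and DDIT4 (0.36). ATF4 was lower at 266, 280 and 280 CPM, below each vehicle library (log2 -0.25 ± 0.05, edgeR adjusted p 8.97e-05), as were ASNS (-0.25) and STC2 (-0.22). The DDIT4 call was lost without vehicle replicate 1 or 2 or Aconiti high replicate 2 (log2 0.27 to 0.33, adjusted p 0.06 to 0.129), and with offsets for GC content and length (0.23, adjusted p 0.134). At the medium dose (20.9% of genes called) 5 rose and 0 fell: PPP1R15A (28.9, 27.2 and 26.1 CPM, log2 0.74), ATF3 (0.60), TRIB3 (0.34), SESN2 (0.32) and ASNS (0.19). That of ASNS was lost without vehicle replicate 1 or 2 or Aconiti medium replicate 1 or 2 (log2 0.18 to 0.19, adjusted p 0.0624 to 0.0786). At the low dose (9.9% called) ATF3 (log2 0.40) and TRIB3 (0.35) rose, ATF3 not without vehicle replicate 3 (0.35, adjusted p 0.0678).

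PPP1R15A therefore had its highest Aconiti level at the medium dose, where each library was above each high-dose library (23.8, 22.2 and 19.2 CPM). In high against low dose of Aconiti (14.6% of genes called), SESN2 (log2 0.48) and PPP1R15A (0.29) were higher. TRIB3 (-0.35), DDIT3 (-0.31), ATF4 (-0.29), ASNS (-0.21) and STC2 (-0.21) were lower. The DDIT3 call was lost without Aconiti high replicate 1 or 2 or Aconiti low replicate 1 or 3 (log2 -0.27 to -0.31, adjusted p 0.133 to 0.17). That of STC2 was lost without Aconiti low replicate 1 or Aconiti high replicate 3 (log2 -0.17 in both cases, adjusted p 0.0977 and 0.083), and that of ASNS without replicate 3 of either dose (log2 -0.16 and -0.20, adjusted p 0.134 and 0.0548).

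ASNS was the gene with the most falls: of 21 comparisons, all with the same vehicle libraries, it was higher in 5 and lower in 7. With Zizyphi it was at 29.9 and 27.9 CPM at the high dose, 29.9 and 30.4 CPM at the medium dose and 40.4 and 41.7 CPM at the low dose, all below the lowest vehicle library (43.0 CPM). The log2 fold change against vehicle was -0.59 ± 0.07 (SE, edgeR adjusted p 1.94e-06) at the high dose and -0.53 ± 0.07 (1.34e-05) at the medium dose. In the Zizyphi high dose 3.63% of genes were called and in the medium dose 1.93%. Between the high and the low dose of Zizyphi, 0.006% of genes were called, which was 1 gene, ASNS (log2 -0.51 ± 0.08, edgeR adjusted p 0.00116). DESeq2 and RLE scaling also called 1 gene in that comparison, and without a filter on low counts 56 were called. The call was lost without replicate 3 of the high dose (log2 -0.45, adjusted p 0.277) or of the low dose (-0.48, adjusted p 0.133).

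With Citri, ASNS was at 29.1, 27.6 and 27.0 CPM at the high dose, the lowest group mean of the 25, among 14.2% of genes called (log2 -0.64 ± 0.06 SE, edgeR adjusted p 2.44e-09), and the other 8 genes did not pass. Between the doses of Citri (high against low), where 0.78% of genes were called, ASNS (log2 -0.53) and DDIT4 (-0.48) were lower. That of DDIT4 was lost without replicate 1 or 2 of the high dose or replicate 1 or 3 of the low dose (log2 -0.43 to -0.50, adjusted p 0.0628 to 0.157), and in a separate fit (-0.48, adjusted p 0.0779). With Yijung-tang, ASNS was low at the medium dose only (29.6 and 30.3 CPM, log2 -0.54 ± 0.07, edgeR adjusted p 2.59e-06), where it was the 1 gene of the 9 among 6.25% of genes called. Its high-dose libraries (41.6 and 43.0 CPM) and low-dose libraries (38.7 and 38.6 CPM) did not pass against vehicle.

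Cimicifugae, from the same set and at the same doses as Citri, had ASNS at 39.8, 39.3 and 40.1 CPM at the high dose. Between the 2 extracts at the high dose, 4 genes were higher with Cimicifugae, among 4.07% of genes called: ASNS (log2 0.50 ± 0.06 SE, edgeR adjusted p 2.27e-07), ATF3 (0.47), TRIB3 (0.30) and PPP1R15A (0.23). Without Citri high replicate 3, ATF3 (0.36, adjusted p 0.0774) and PPP1R15A (0.19, adjusted p 0.216) were not called. PPP1R15A was also lost without Citri high replicate 1 (0.24, adjusted p 0.0895) or Cimicifugae high replicate 1 or 3 (0.20 and 0.23, adjusted p 0.176 and 0.0882) and without a filter on low counts (0.23, adjusted p 0.159). The change from low to high dose differed between them for 2 of the 9, where 1.33% of genes were called: ASNS (difference in log2 0.51 ± 0.09, edgeR adjusted p 0.000283) and TRIB3 (0.35 ± 0.09, 0.0242). TRIB3 was lost when any 1 of 7 of the 12 libraries was left out (replicate 1 or 3 of Citri low, 2 or 3 of Citri high, 1 of Cimicifugae high, and 1 or 2 of Cimicifugae low), with values of 0.33 to 0.35 and adjusted p of 0.0621 to 0.0941.

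**Figure D4:**
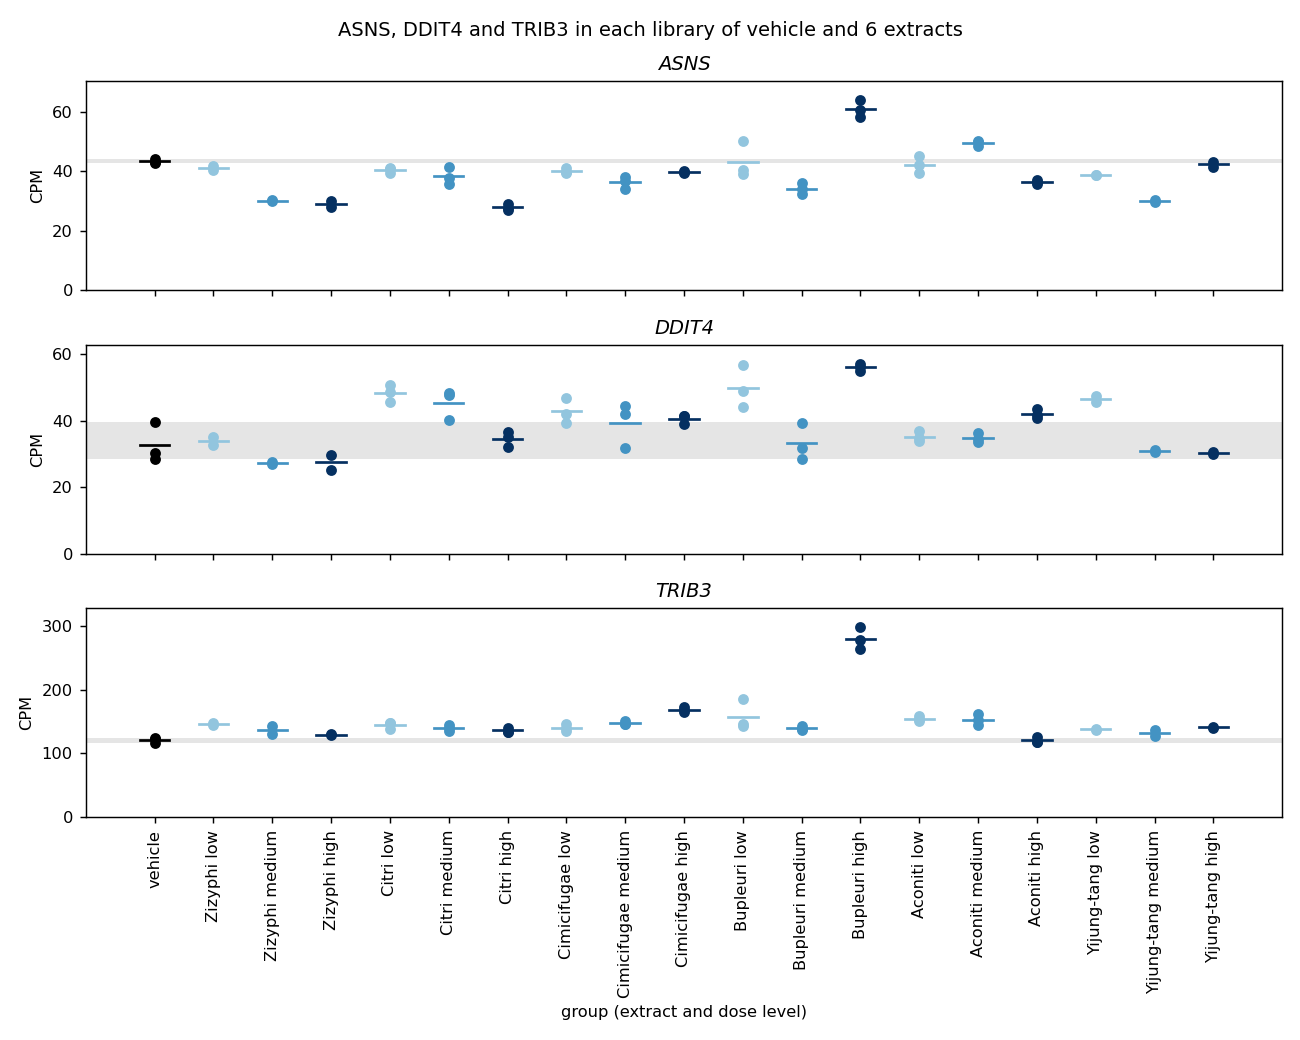
CPM of ASNS, DDIT4 and TRIB3 in each library of vehicle and of 6 extracts at the low, medium and high dose (light to dark blue), with a bar at each group mean and a grey band over the range of vehicle. ASNS lies below the band in most groups. It is lowest at the Zizyphi medium and high, Citri high and Yijung-tang medium doses (27.0 to 30.4 CPM). DDIT4 lies above the band in each library of the Bupleuri high and low and the Citri medium and low doses. It does so too at the Aconiti high and Yijung-tang low doses. TRIB3 lies above the band in nearly all groups.

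TRIB3 was higher than vehicle in 15 of 21 comparisons and lower in 0, and DDIT4 was higher in 11 and lower in 0. All 21 share the same vehicle libraries, so the calls are not separate results. The vehicle mean ranked 24th from the top of the 25 groups for TRIB3 and 21st for DDIT4. Apart from Coptidis, Bupleuri high and Cimicifugae high, the called TRIB3 values had log2 fold changes of 0.20 to 0.38. At the Zizyphi low dose TRIB3 was the 1 gene called of the 9, among 2.79% of genes (145 and 148 CPM, log2 0.27). It was lost without vehicle replicate 1 or 2 or either Zizyphi low library (0.24 to 0.29, adjusted p 0.058 to 0.214), and after adjustment for GC content and length (0.14, adjusted p 0.105). With that adjustment the TRIB3 calls at the Citri medium and low, Cimicifugae low and Bupleuri medium doses were lost as well (0.07 to 0.09). TRIB3 of the Citri medium dose was also lost without vehicle replicate 1 or 2 or Citri medium replicate 1 or 3 (0.18 to 0.22, adjusted p 0.0528 to 0.135), and STC2 of the Zizyphi high dose (log2 -0.28) without vehicle replicate 1 or either Zizyphi high library (-0.26 to -0.29, adjusted p 0.0669 to 0.208).

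Within Citri and within Yijung-tang, DDIT4 was highest at the low dose. With Citri it was at 50.8, 45.5 and 48.7 CPM at the low dose, 40.3, 47.6 and 48.3 CPM at the medium dose and 32.0, 35.2 and 36.6 CPM at the high dose. Against vehicle it was called at the low (log2 0.56 ± 0.11 SE) and medium dose (0.47 ± 0.11), together with TRIB3 in both, among 15.9% and 10.5% of genes called. With Yijung-tang it was at 45.7 and 47.4 CPM at the low dose, 31.3 and 30.6 CPM at the medium dose and 30.5 and 29.9 CPM at the high dose. In high against low dose of Yijung-tang (7.29% of genes called) DDIT4 was lower (log2 -0.61 ± 0.14, edgeR adjusted p 0.00197), as was SESN2 (-0.36). The SESN2 call was lost when any 1 of the 4 libraries was left out (-0.33 to -0.39, adjusted p 0.0585 to 0.148).

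Against vehicle, where 1.69% of genes were called, DDIT4 was the 1 gene called at the Yijung-tang low dose (log2 0.51), and it was lost without vehicle replicate 1 or 2 or either Yijung-tang low library (0.41 to 0.53, adjusted p 0.122 to 0.26), with offsets for GC content and length (0.44, adjusted p 0.0563) or in a separate fit (0.51, adjusted p 0.0605). At the Yijung-tang high dose, where 17.3% were called, TRIB3 (log2 0.22) was higher and SESN2 (18.1 and 19.0 CPM, log2 -0.29) lower. TRIB3 was lost without vehicle replicate 1 or either Yijung-tang high library (0.19 to 0.23, adjusted p 0.092 to 0.112) and SESN2 without vehicle replicate 3 or either Yijung-tang high library (-0.24 to -0.32, adjusted p 0.0878 to 0.165).

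Cimicifugae at the high dose raised 4 of the 9 genes, among 22.2% of genes called. TRIB3 was at 173, 165 and 168 CPM (log2 0.47 ± 0.06 SE, edgeR adjusted p 1.43e-07) and ATF3 at 5.77, 5.52 and 5.03 CPM (0.42 ± 0.11, 0.00304), both above all vehicle libraries. DDIT4 (0.31) and PPP1R15A (0.20) were called with smaller values. DDIT4 was lost without vehicle replicate 1 or 2 or any 1 of the 3 Cimicifugae libraries (0.21 to 0.34, adjusted p 0.0526 to 0.242), and PPP1R15A without vehicle replicate 1 or 3 or Cimicifugae high replicate 1 or 3 (0.17 to 0.21, adjusted p 0.0512 to 0.119). With offsets for GC content and length, PPP1R15A had log2 0.06 (adjusted p 0.563) and DDIT4 0.18 (adjusted p 0.294). DDIT4 was also lost in a separate fit (0.31, adjusted p 0.161), and PPP1R15A without a filter on low counts (0.21, adjusted p 0.0773). At the medium dose (10.7% of genes called) TRIB3 rose (log2 0.28) and ASNS fell (-0.26), ASNS not without Cimicifugae medium replicate 1 (-0.22, adjusted p 0.0504). At the low dose (6.1% called) TRIB3 (0.21) and DDIT4 (0.39) rose. TRIB3 was lost without vehicle replicate 1, 2 or 3 or Cimicifugae low replicate 2 or 3 (0.18 to 0.23, adjusted p 0.0502 to 0.175), and DDIT4 without vehicle replicate 1 or 2 or Cimicifugae low replicate 2 or 3 (0.29 to 0.40, adjusted p 0.0731 to 0.191), with the offsets (0.31, adjusted p 0.103) or in a separate fit (0.39, adjusted p 0.12). In high against low dose (7.14% called) TRIB3 (0.26) and PPP1R15A (0.26) were higher, PPP1R15A not without Cimicifugae high replicate 1 or low replicate 3 (0.23 in both cases, adjusted p 0.0618 and 0.0606).

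Banhasasim-tang, a formula that by tradition includes Coptidis rhizome, had 1 library per dose, so its values have no replicate check and no test. At the high dose all 9 genes were above the highest vehicle library, and the share of all genes above it was not counted. ASNS was at 112 CPM and DDIT4 at 86.5 CPM (log2 ratios to the vehicle mean 1.36 and 1.40), and TRIB3, PPP1R15A and STC2 had ratios of 1.03, 1.02 and 1.02. ATF3 was at 7.91 CPM (0.95), SESN2 at 36.6 CPM (0.68), ATF4 at 467 CPM (0.51) and DDIT3 at 17.1 CPM (0.38). The median ratio of the 9 was 1.02 at the high dose, 0.25 at the medium dose and 0.58 at the low dose. In the Yijung-tang libraries of the same set and dose, ASNS measured 41.6 and 43.0 CPM and TRIB3 141 and 140 CPM. Mitochondrial rRNA took 11.8% of the high-dose library of Banhasasim-tang and 8.01% of the medium-dose library, and its part in these values was not tested.

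The low-dose library of Banhasasim-tang stood apart, with the smallest total of the 60 and with mitochondrial rRNA and mRNA at 0.485% and 0.585% of counts, beside 5.94% to 7.78% for mitochondrial mRNA in the 51 libraries above. In it TRIB3 (311 CPM, log2 ratio 1.36), PPP1R15A (48.6 CPM, 1.56) and ATF4 (486 CPM, 0.57) were higher than in the high-dose library, and ASNS (33.6 CPM, -0.37) was below vehicle. ATF3 (5.05 CPM) and DDIT3 (13.6 CPM) stayed near vehicle. Between the 2 remaining libraries, all 9 genes were higher at the high than at the medium dose. With 1 library on each side this cannot show an order by dose, and the share of all genes higher was not counted.

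Over the 25 groups, each of the 9 genes had its highest mean at the Coptidis high dose. The second highest was the Coptidis medium dose for 8 of them, and for ATF3 it was Bupleuri high (13.9 ± 0.907 CPM, SD, n = 3), next to Coptidis medium (13.4 ± 0.328 CPM, n = 2), whose libraries overlap in range. For DDIT3, Bupleuri high (17.6 CPM), Banhasasim-tang high (17.1 CPM) and Coptidis low (16.4 CPM) followed each other within the spread of the Bupleuri libraries (17.1 to 18.5 CPM) or just below it. The highest over the lowest group mean was 18.5 for PPP1R15A, 14.2 for ATF3, 10.3 for SESN2 and 10.2 for ASNS, and 2.34 for ATF4. Across these 25 group means, Pearson's r of log2(CPM + 0.5) between 2 of the 9 genes had a median of 0.90 (36 pairs, 0.80 for ATF4 with ATF3 to 0.96 for ATF4 with STC2). Over the 22 groups without Coptidis the median was 0.66, from 0.27 (DDIT3 with SESN2) to 0.91 (ATF4 with STC2). Group means share sets and extracts and are not independent.

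By the same measure, in genes averaging 5 CPM or more, the 4 other genes most like ASNS over 25 groups were GARS1 (r = 0.98), MTHFD2 (0.97), CARS1 (0.97) and MARS1 (0.97), that is 3 tRNA synthetases and a mitochondrial folate enzyme. Without Coptidis, GARS1 (0.92), MTHFD2 (0.89), SQOR (0.89) and CARS1 (0.88) led. Those most like ATF3 were ITPRIPL2 (0.98), CHIC2 (0.98), DUSP1 (0.98) and KLF5 (0.97) over all groups, and CMTM3 (0.95), INO80C (0.93) and TNFRSF12A (0.92) were among those without Coptidis. For DDIT3 they were CTSB (0.96), ACTG1 (0.96), SERINC2 (0.96) and a gene without a symbol (0.96), and without Coptidis APOA2 (0.87), TMEM199 (0.78), ACTG1 (0.78) and CHMP4A (0.77). ASNS thus had 3 of its 4 nearest genes in both lists and DDIT3 had 1.

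Other genes of the pathway were read from lists of the kinases and targets. At the Coptidis high dose, where 67.5% of all genes were called, 12 of 18 other amino acid genes under ATF4 were higher and 4 lower (median log2 1.11, beside 0.00 over all genes), led by SLC7A11, the cystine importer (log2 4.25 ± 0.09 SE), and CTH, which makes cysteine (5.67-fold). Of 17 other stress targets of ATF4 and DDIT3 that were tested, 14 were higher and 1 lower (median 1.81). The stress cytokine GDF15 went from 138 ± 8.51 CPM (SD, n = 3) to 3111 ± 299.7 CPM (SD, n = 2), and the lipoprotein receptor VLDLR rose 12.1-fold. Of 14 bZIP factors that can pair with ATF4 or related proteins, 10 were higher and 2 lower (median 1.33). FOS was 35.3-fold higher, from a very low vehicle level (0.669 ± 0.139 CPM, SD, n = 3, to 23.9 ± 1.68 CPM, n = 2), and FOSL1 12.5-fold.

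In the same comparison, with 67.5% of all genes called, the kinases, eIF2 and eIF2B split, with 8 of 17 higher and 6 lower (median 0.16). The largest called change was that of PPP1R15B, the constitutive partner of the eIF2 phosphatase (56.7 to 108 CPM, log2 0.93), followed by EIF2B2 (0.69). The chaperones and folding factors of the endoplasmic reticulum controlled mainly by ATF6 and XBP1 went the other way: 13 of 15 were lower and 2 higher (median -0.78), with CRELD2 (log2 -1.73 ± 0.12) and SDF2L1 (-1.61 ± 0.21) at the bottom. Of 8 paralogs of the 10 genes that were tested, 3 were higher and 4 lower, among them TRIB1 (log2 2.07) higher and SESN3 (-2.14) lower.

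At the Bupleuri high dose, where 38.9% of all genes were called, the same lists gave 9 of 18 higher and 4 lower for the amino acid genes (median 0.25), 13 of 17 higher and 1 lower for the stress targets (0.39), 10 of 14 higher and 1 lower for the bZIP factors (0.61), and 1 of 15 higher and 10 lower for the chaperones (-0.26). GDF15 rose 4.26-fold, JUN 3.24-fold and SLC7A11 2.92-fold, and EDEM1, which sends misfolded glycoproteins to degradation, was the gene named for the chaperone list (log2 0.60). At the Aconiti high dose (23.2% of all genes called) the chaperones had 1 higher and 12 lower (median -0.36), with DNAJB11 lowest (log2 -0.72), while the amino acid genes had 2 higher and 7 lower (-0.11). At the Citri high dose (14.2% called) the amino acid genes had 2 higher and 6 lower (-0.13), with CTH at -0.36, and at the Zizyphi high dose (3.63% called) 0 higher and 3 lower (-0.06), with SLC38A2, an amino acid transporter, at -0.21. These comparisons share the vehicle libraries.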

How the data were processed

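RNA-seq libraries of HepG2 cells were sequenced as paired reads of 100 bases from a strand-marking kit, per the labels' protocols. The authors deposited a table of expected counts per gene. Per the submitters' processing notes, the tools were RSEM 1.3.3, STAR 2.7.3a, FastQC 0.11.9 and Trim Galore 0.6.5, with the build GRCh38. Which annotation release was counted was not given in the sources used here. Of 267 columns, the 60 that matched labelled samples were used and 207 were not. Expected counts, of which 8.75% were not whole, were rounded. Gene symbols were matched for 56558 IDs. The members and the other gene lists were chosen with earlier results of these data known.

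The 57 libraries of the 22 groups with 2 or 3 libraries entered 1 edgeR 4.0.16 quasi-likelihood fit (R 4.3.3, TMM scaling, filterByExpr), with 16675 genes tested, 44000 filtered out and 35 residual degrees of freedom. P-values were adjusted by Benjamini-Hochberg over all genes tested, and under 0.05 was called. Each SE was taken from the log2 fold change and its F value (their quotient, after a square root of F). CPM are counts per 1000000 counts of the TMM-scaled library, except for cell type markers, pseudogenes and the CHAC1 floor, which use the unscaled total. Levels per kilobase use the union of exons in GENCODE 29. Banhasasim-tang ratios used a prior count of 2. The 95% intervals of CHAC1 ratios are exact for the summed counts.

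Library totals ran from 18015555 to 29549531 counts. Each of the 48 replicate pairs differed beyond sampling noise (chi-square per degree of freedom 2.09 to 99.4). On simulated counts for Coptidis high against vehicle (15900 genes), 71 of 100 genes changed by log2 0.5 and 96 of 100 changed by log2 1 were recovered, with 11 false calls. Only these genes, all well counted, were changed, with the same spread for every gene and no shift between sets. The real comparison had 67.5% of genes called, so these figures do not describe its recovery or its false calls.

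Alternatives were DESeq2 1.42.0, RLE scaling, no filter on low counts, offsets for GC content and transcript length, a replicate block, a separate fit of the groups compared, and each library left out in turn. Same-numbered libraries deviated together only weakly over all genes tested (correlations -0.0509 to 0.136). In 0 of 18 comparisons with 3 pairs were all 3 above 0.1, so the block is an alternative and the main fit is unpaired. Over 7602 genes of at least 20 CPM, correlations were 0.164 to 0.509 for Cimicifugae against Citri at the high dose. They were 0.142 to 0.394 for Bupleuri high against low, and -0.0794 to 0.116 for Aconiti high against low.

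The members are described in every comparison. From each other list, up to 2 called genes with the largest change at the Coptidis high dose and 1 at another high dose were named, and the 4 genes most like ATF3, DDIT3 and ASNS, of which 1 is not reported here. Promoter windows are from RefSeq.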

Additional observations from a re-analysis of the deposited data

Results flagged for a closer look

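The change from the low to the high dose differed between Coptidis and Bupleuri, by edgeR's test of that difference, for all 9 genes tested. Of all 16675 genes tested, 44.0% were called for that difference in either direction. Coptidis minus Bupleuri, in log2 fold change, the difference was 0.31 for ATF4, 1.33 for ATF3, 1.13 for DDIT3 and 0.24 for TRIB3. It was 1.80 for SESN2, 0.72 for STC2, 1.13 for ASNS, 1.19 for DDIT4 and 2.22 for PPP1R15A. The same kind of test between Cimicifugae and Citri, Cimicifugae minus Citri, gave 0.35 for TRIB3 and 0.51 for ASNS. There, 1.33% of all genes tested were called. Each pair of extracts was given at equal doses, but Coptidis and Bupleuri come from different sets, and the descriptions of Coptidis name another batch, so set, and possibly batch, and extract differ together in that pair. The ATF4 difference between Coptidis and Bupleuri was lost in a fit of those extracts alone. Both TRIB3 differences were lost when single libraries were left out, and the libraries and values stand with the results.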

How the results depend on the processing

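Of 148 called member values, 111 were called under every alternative run, 37 were lost under at least 1, and 0 changed direction. The numbers of called genes that follow are those that changed by a factor of 1.5, and smaller changes are left out. High against low dose of Aconiti and of Bupleuri also lost calls when single libraries were left out, as given with the results. With offsets for GC content and transcript length, the number of the 9 genes called against vehicle was 0 at the Zizyphi low dose, 2 at Citri high, 1 at Citri medium, 1 at Citri low, 2 at Cimicifugae high, 0 at Cimicifugae low, 1 at Bupleuri medium, 2 at Yijung-tang medium and 0 at Yijung-tang low. In a separate fit it was 3 at Zizyphi medium, 2 at Citri high, 1 at Cimicifugae low, 0 at Bupleuri medium, 1 at Bupleuri low, 3 at Yijung-tang medium and 4 at Yijung-tang low, and with DESeq2 2 at Citri high. The cause was not tested. With each library left out in turn, the number against vehicle ranged from 1 to 2 at Zizyphi high, 0 to 1 at Zizyphi low, 1 to 2 at Citri medium, 2 to 3 at Cimicifugae high, 0 to 2 at Cimicifugae low, 1 to 2 at Bupleuri medium, 2 to 4 at Bupleuri low, 1 to 2 at Aconiti low, 0 to 2 at Yijung-tang high and 0 to 1 at Yijung-tang low. In high against low dose it ranged from 0 to 1 for Zizyphi, 1 to 2 for Citri and 1 to 2 for Cimicifugae, and was 1 for Yijung-tang. It ranged from 2 to 4 in Cimicifugae against Citri at the high dose and from 1 to 2 for their difference in dose effect. A replicate block ended the call of SESN2 in Bupleuri against Aconiti (log2 -0.18, edgeR adjusted p 0.0783) and of TRIB3 in the Coptidis and Bupleuri difference (0.22, 0.0706), and no other member call. Over genes of at least 20 CPM, same-numbered libraries correlated above 0.1 in every pair for Bupleuri high against low and Cimicifugae against Citri, where the block ended no member call. A prior count of 5 moved 0 of 27 Banhasasim-tang ratios beyond the vehicle spread. CHAC1, with 2 counts in vehicle, is limited by its counts.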
